A study of Arabidopsis thaliana with 6 samples.

Results

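The report concerns 101 genes of Arabidopsis thaliana that had at least 5 TPM (transcripts per 1000000) in each of 3 sperm cell (SC) libraries and exactly 0 TPM in each of 3 vegetative nucleus (VN) libraries. They were 101 of the 27655 genes in the table, and 2.58% of the 3916 genes with at least 5 TPM in every SC library. The members were chosen by these values, so their levels in SCs and VN are a description and were not tested. All libraries came from mature pollen of 1 transgenic marker line with the genotype label WT. In this line MGH3-GFP under the MGH3 promoter marks SCs, and H2B-mRFP under the ACT11 promoter marks VN. The plants grew in short days of 8 h light for 8 weeks and were then moved to long days of 16 h light. Flowers were collected, pollen was cracked, and SCs and VN were sorted by fluorescence and made into Smart-seq2 libraries, which are not stranded. The design text names the 3 libraries of each cell type biological replicates.

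A mature Arabidopsis pollen grain holds a pair of SCs inside a large vegetative cell. The SCs fertilise the egg cell and the central cell, and the vegetative cell grows the pollen tube that carries them. DUO1, a MYB transcription factor, switches on many sperm genes, and mitotic cyclins and their kinases drive the division that forms the SC pair. SCs were sorted as whole cells and VN as nuclei, so cell type and cell compartment cannot be told apart in any of the values below. In bulk libraries, fewer cells with a transcript and less RNA per cell cannot be told apart either.

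A value of 0 in this table is not proof that a transcript was missing. The numbers of genes above 0 TPM were 13735, 15112 and 12418 in the SC libraries and 15289, 10202 and 13649 in the VN libraries. Of 436 genes with a ribosomal description, 189 to 205 were at 0 in a SC library and 152 to 298 in a VN library. Of all 27655 genes, 12543 to 15237 were at 0 in a SC library and 12366 to 17453 in a VN library. Zeros were thus common in both sets, and these counts cannot tell a missed transcript from an absent one. The members are therefore called listed at 0 in VN. TPM values keep no read depth, so the depth of each library is unknown and no limit of detection is given. The labels of the libraries fitted their markers. The 10 sperm markers summed to 39352 to 46042 TPM in SC libraries and to 594 to 1288 TPM in VN libraries, and the 18 vegetative markers to 1087 to 1363 TPM in SC libraries and to 31342 to 36451 TPM in VN libraries. Green tissue markers summed to at most 0.584 TPM in SC libraries and 3.79 TPM in VN libraries. Tapetum markers summed to at most 0.606 TPM in SC libraries and 31.4 TPM in VN libraries.

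The 101 members were a small and weakly expressed share of the SC transcriptome. They summed to 2092, 1916 and 1729.8 TPM in SC replicates 1, 2 and 3, which is 0.209%, 0.192% and 0.173% of all TPM. Their median level was 14.2, 12.8 and 12.5 TPM in these libraries. The median of a member over the SC libraries was 13.7 TPM at the midpoint of the list, with quartiles at 9.13 and 19.7 TPM. The other 3815 genes with at least 5 TPM in every SC library had a midpoint of 27.5 TPM and quartiles of 13.2 and 75.8 TPM.

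The 3 highest members were AT1G71350, AT5G26620 and TIC20-II (AT2G47840). AT1G71350, described as a SUI1 family translation initiation factor, had 142, 161 and 138 TPM in SC replicates 1, 2 and 3. It was the only member whose SC median passed 100 TPM, and its 3 libraries lay close together. AT5G26620, a hypothetical protein of 74 residues encoded at chr5:9366697-9366963, had 115.5, 97.3 and 70.3 TPM. TIC20-II, a relative of a protein import channel of the inner chloroplast envelope, had 103, 77.3 and 60.9 TPM. Both were highest in SC replicate 1 and lowest in SC replicate 3.

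The upstream sequences of 3 of the 15 highest members are shown because these were the ones with at least 2 matches to AACCG, a motif found in DUO1 binding sites. Each is the stretch of 250 bases before the annotated transcript start, read from the RefSeq TAIR10.1 genome on the strand of the gene. Capitals mark AACCG or its reverse complement CGGTT. AT1G71350 is on the minus strand, with the stretch at chr1:26891285-26891534. CLC2 (AT2G40060), a clathrin light chain, is on the plus strand, with the stretch at chr2:16726174-16726423. AT5G26620 is on the minus strand, with the stretch at chr5:9366964-9367213.
AT1G71350: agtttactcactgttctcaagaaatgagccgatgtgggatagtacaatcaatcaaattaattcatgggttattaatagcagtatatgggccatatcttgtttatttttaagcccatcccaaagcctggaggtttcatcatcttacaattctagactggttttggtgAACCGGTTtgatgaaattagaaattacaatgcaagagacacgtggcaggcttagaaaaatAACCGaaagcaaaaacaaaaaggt
CLC2: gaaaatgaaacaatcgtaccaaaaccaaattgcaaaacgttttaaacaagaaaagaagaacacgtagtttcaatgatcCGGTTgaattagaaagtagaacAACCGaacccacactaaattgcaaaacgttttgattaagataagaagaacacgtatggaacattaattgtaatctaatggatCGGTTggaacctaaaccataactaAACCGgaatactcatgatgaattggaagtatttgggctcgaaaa
AT5G26620: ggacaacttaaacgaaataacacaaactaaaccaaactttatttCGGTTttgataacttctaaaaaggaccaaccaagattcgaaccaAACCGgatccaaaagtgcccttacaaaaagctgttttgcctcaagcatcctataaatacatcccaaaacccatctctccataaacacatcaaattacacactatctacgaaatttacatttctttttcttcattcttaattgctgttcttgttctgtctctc

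AT1G71350 held 3 matches, of which the pair that begins 84 and 81 bases before the start overlaps in AACCGGTT. CLC2 held 4 matches, at 172, 150, 68 and 44 bases before the start. AT5G26620 held 2, at 206 and 162 bases. Over these 250 bases, 17 of 101 members held at least 2 matches. So did 467 of 3814 other genes of at least 5 TPM in every SC library and 2251 of all 27443 protein-coding genes.

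Over all members, a window reaching 250 bases before and 50 bases after the start held AACCG on either strand in 48 of 101 genes (47.5%). The share was 35.1% in the other 3814 genes of at least 5 TPM in every SC library that had a gene model, and 26.8% in all 27443 protein-coding genes with a window. AACGG, the core of the mitosis-specific activator element, was in 33 member windows (32.7%), against 32.5% of the other SC genes and 24.7% of all genes. The E2F sites TTTCCCGC and TTTGGCGC were in 0 and 1 member windows, against 1.44% and 0.760% of the windows of the other SC genes. TATAAA was in 51 member windows (50.5%), against 50.7% of the other SC genes and 52.1% of all genes. All motifs were counted on both strands, and AACCG and CGGTT matches may overlap. With only the 250 bases before the start, AACCG was in 37.6% of members, 29.6% of the other SC genes and 23.2% of all genes, and AACGG was in 21.8% of members, 26.9% of the other SC genes and 20.6% of all genes. These shares are descriptions without a test, and a match does not show binding.

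**Figure D1:**
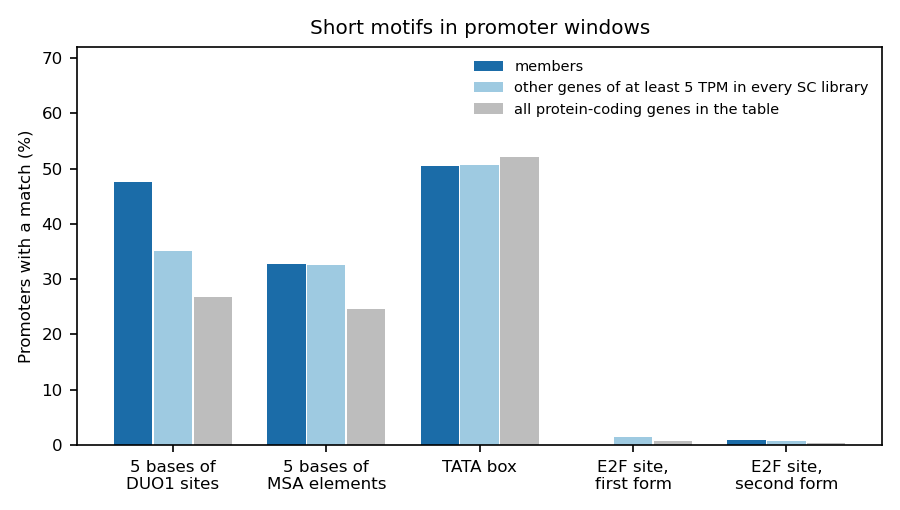
Share of promoter windows (%, 250 bases before to 50 after the start) with at least 1 match to each motif on either strand, for the 101 members, the other genes of at least 5 TPM in every SC library and all protein-coding genes of the table. The members' bar stands above those of the other SC genes and of all genes for AACCG (47.5%) and close to that of the other SC genes for AACGG (32.7%) and TATAAA (50.5%).

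Members were more frequent among weakly expressed SC genes. Of the 615 genes with a SC median between 5 and 10 TPM, 34 (5.53%) were members. The share was 4.42% between 10 and 20 TPM (42 of 951 genes), 2.01% between 20 and 50 TPM (21 of 1044) and 0.561% between 50 and 100 TPM (3 of 535). Above 100 TPM there was 1 member among 609 genes up to 500 TPM and none among 162 genes beyond. Each VN library by itself showed the same order, and VN replicate 2 had the largest share of zeros in every class. Over all 3916 genes, 9.04%, 16.0% and 9.83% were at 0 in VN replicates 1, 2 and 3. Of these genes, 3042 were at 0 in no VN library, 483 in 1, 290 in 2 and the 101 members in all 3. Low SC level moved with membership, and its part in the zeros was not tested.

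**Figure D2:**
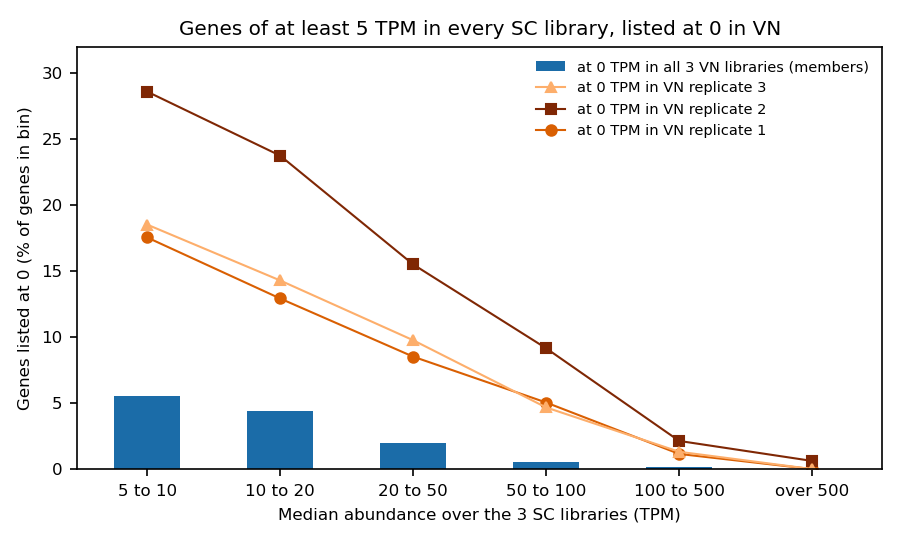
Share of genes listed at 0 TPM in VN (%, vertical axis) by median abundance in SCs (TPM classes, horizontal axis) among the 3916 genes of at least 5 TPM in every SC library. Bars are the members, at 0 in all 3 VN libraries, and lines are single VN libraries. The bars fall to 0% above 500 TPM, against 5.53% in the lowest class.

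The mirrored rule, at least 5 TPM in every VN library and 0 in every SC library, took 75 of 4142 genes. The most abundant SC genes were nearly all above 0 in VN. Of 771 genes with a SC median of at least 100 TPM, 7, 14 and 8 were at 0 in VN replicates 1, 2 and 3, and the median VN value was 5.15%, 5.89% and 7.30% of the SC median.

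The rule has sharp edges on both sides. Just inside the SC edge lay AT1G23390, a kelch repeat F-box gene (5.02, 11.5 and 13.3 TPM in SC replicates 1, 2 and 3). JAL15 (AT1G58160), a jacalin-like lectin, was inside with 17.2, 23.5 and 5.03 TPM, and IQD5 (AT3G22190), a calmodulin-binding protein, with 5.05, 6.62 and 9.68 TPM. Just outside, also at 0 in every VN library, were AT4G12540 with 4.99 TPM in its lowest SC library, the kinase gene SNRK2.3 (AT5G66880) with 4.97 TPM and FKBP43 (AT3G12340) with 4.96 TPM. On the VN side, ATG18G (AT1G03380), BHLH23 (AT4G28790) and QWRF2 (AT1G49890) were left out for 0.0088, 0.0155 and 0.0157 TPM in VN replicate 3. A further 75 genes of at least 5 TPM in every SC library were under 0.1 TPM in every VN library, and 394 were under 1 TPM. Genes on either side of each edge thus had nearly the same values.

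The spread between SC libraries, given here as a description, was wider for members than for other SC genes with a median under 50 TPM. The members' median coefficient of variation over the 3 SC libraries was 22.6%, against 17.9% in these 2513 genes. Level was not matched, as these genes had a midpoint of 16.4 TPM and the members one of 13.7 TPM. The part of level in the spread was not tested. The highest library exceeded the lowest by more than 2-fold in 20 members (19.8%), against 9.55% of those genes. SC replicate 3 was the lowest library for 49 of 101 members, and it was also the most frequent lowest library, in 1126 of 2513, among those genes. Across members, log2 TPM correlated between SC libraries with r = 0.879 (replicates 1 and 2), 0.797 (1 and 3) and 0.824 (2 and 3), as a description over 101 genes that share libraries.

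The steadiest members were AT1G76910, a hypothetical protein, with 9.57, 9.61 and 9.38 TPM in SC replicates 1, 2 and 3, the cyclophilin gene CYP38 (AT3G01480) with 13.2, 12.6 and 12.5 TPM, and AT3G13235, of the ubiquitin family, with 6.90, 7.31 and 7.14 TPM. The widest were JAL15, AT3G04181, a hypothetical protein with 22.2, 13.7 and 5.56 TPM, and CP12-3 (AT1G76560), of a family that regulates the Calvin cycle, with 21.2, 9.43 and 5.94 TPM. SC replicate 3 was the low library in all 3 of the widest.

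**Figure D3:**
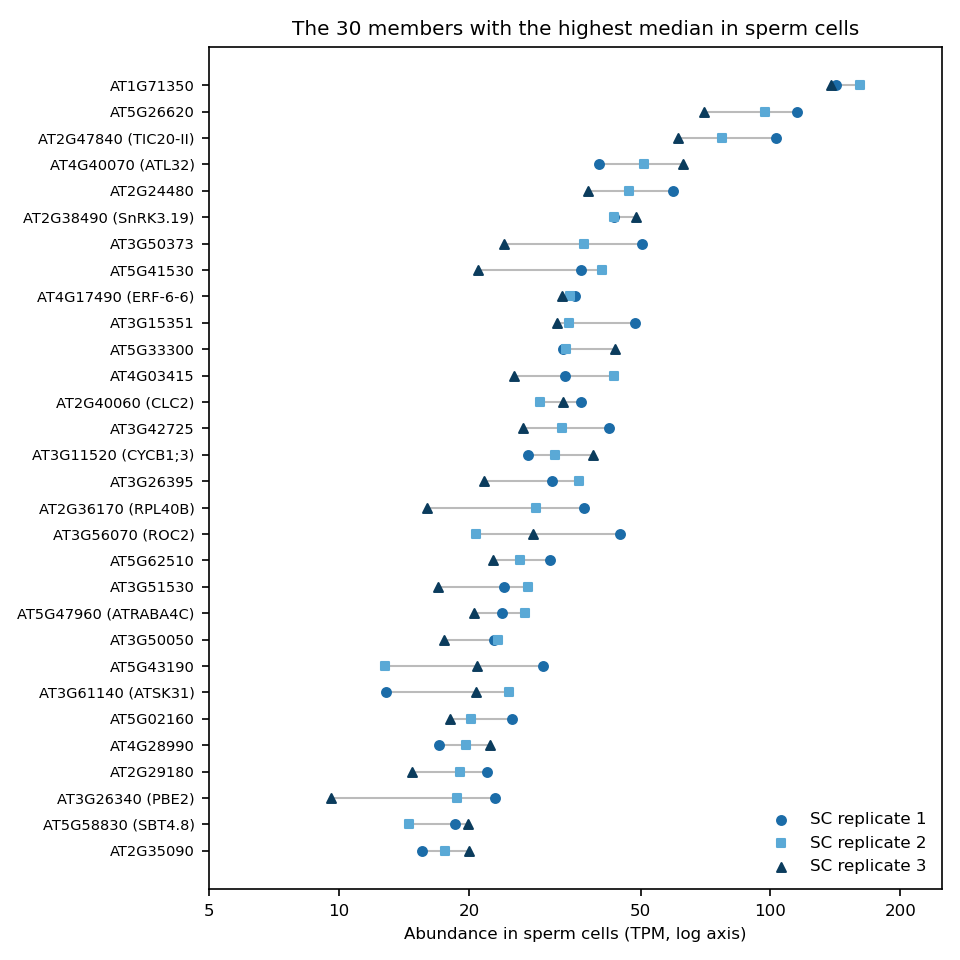
Abundance (TPM, log axis) of the 30 members with the highest SC median, 1 row a gene and 1 point per SC library, with a line spanning the 3 libraries. All were listed at 0 TPM in every VN library. AT1G71350 stands apart at 138 to 161 TPM, and the triangles of SC replicate 3 are often the lowest points.

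The descriptions placed the members in 12 groups, which were defined by words chosen after the members' descriptions had been read, so the group sizes are not compared with other genes. The cell division group held 5 members. CYCB1;3 (AT3G11520), a B-type cyclin that activates mitotic kinases, had 27.4, 31.6 and 38.8 TPM in SC replicates 1, 2 and 3. CDKB1;1 (AT3G54180), a plant-specific cyclin-dependent kinase of mitosis, had 16.8, 15.4 and 13.8 TPM. AT5G33300, a kinesin-like protein described as bound to chromosomes, had 33.0, 33.6 and 43.5 TPM. The remaining 2 were described as inhibitors of cyclin-dependent kinases. Whether they act on the kinases that CYCB1;3 activates was not tested. SMR8 (AT1G10690) had 17.96, 10.7 and 15.3 TPM and SMR4 (AT5G02220) had 23.0, 13.5 and 7.70 TPM.

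Genome maintenance and chromatin were represented by 2 members each. AT3G15351, described as regulated by P53 and DNA damage, had 48.6, 34.1 and 31.9 TPM, and AT3G52390, a TatD-related DNase, had 5.88, 6.14 and 8.14 TPM. HDA6 (AT5G63110), a histone deacetylase that silences transposons and ribosomal RNA genes, had 12.8, 7.85 and 10.5 TPM. SDE5 (AT3G15390), which acts in gene silencing by small RNAs, had 11.4, 11.7 and 7.80 TPM.

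The transcription group held 8 members. AT3G50373, of the TFIIS elongation factor family, had 50.5, 37.1 and 24.1 TPM. ERF6 (AT4G17490), an ethylene response factor of stress signalling, had 35.3, 34.3 and 32.9 TPM and hardly varied between libraries. AT1G53690, a 7 kDa subunit of RNA polymerases, had 23.8, 16.1 and 10.7 TPM. The MADS-box gene AT5G38620 had 14.2, 24.7 and 12.3 TPM, and AT5G05550, described as a DNA-binding factor, lay between 12.9 and 15.9 TPM. The lowest of the group was the GRAS family gene AT1G07520, with 8.24, 6.45 and 7.02 TPM.

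Ubiquitin and proteolysis formed the largest group, with 18 members between 7.14 and 50.9 TPM in SC median. By the words of their descriptions, they included 5 F-box genes and 3 RING genes. Genes of these families whose descriptions lack the word are not counted. F-box proteins choose targets for SCF ubiquitin ligases, and RING proteins pass ubiquitin to targets. ATL32 (AT4G40070), a RING protein, had 39.95, 50.9 and 62.7 TPM, and AT2G24480, another RING gene, had 59.4, 47.0 and 37.7 TPM, so the SC libraries ran in opposite orders. The F-box gene AT5G62510 had 30.8, 26.3 and 22.7 TPM and AT3G51530 had 24.1, 27.4 and 16.9 TPM. AT3G50050, an aspartyl protease, had 22.8, 23.4 and 17.5 TPM. Other members of this group were FUS6 (AT3G61140), subunit 1 of the COP9 signalosome that regulates cullin ligases, the proteasome subunit gene PBE2 (AT3G26340), the ubiquitin protease gene UBP14 (AT3G20630) and PUB29 (AT3G18710), a U-box ligase.

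RNA and translation held 14 members, 5 of them described as ribosomal proteins with SC medians between 7.25 and 28.6 TPM. After AT1G71350, the highest was RPL40B (AT2G36170), a ubiquitin fused to a ribosomal protein, with 36.9, 28.6 and 16.0 TPM. AT4G28990, an RNA-binding protein, had 17.0, 19.7 and 22.4 TPM. RPS15E (AT5G43640), of the small ribosomal subunit, had 22.8, 16.3 and 14.5 TPM, and RPS14 (AT2G34520), of the mitochondrial ribosome, had 20.1, 13.2 and 13.8 TPM. Zeros were common among ribosomal genes, as among all genes, in both cell types, as given above.

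Protein folding held 8 members, with 4 peptidyl-prolyl isomerases of the cyclophilin and FKBP types and 2 DnaJ co-chaperones. ROC2 (AT3G56070), a cyclophilin, had 44.9, 20.7 and 28.1 TPM. EMB1241 (AT5G17710), a GrpE co-chaperone that resets Hsp70, had 15.7, 15.1 and 16.5 TPM, and PFD3 (AT5G49510), a prefoldin subunit that delivers tubulin and actin to their folding complex, had 15.1, 13.8 and 14.1 TPM. CYP38 was described above. AT1G26550, an FKBP-like isomerase, had 11.4, 6.09 and 9.34 TPM.

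The 9 kinase and signalling members lay between 6.33 and 43.4 TPM in SC median. CIPK22 (AT2G38490), a kinase of the family that calcium-binding CBL proteins switch on, had 43.4, 43.3 and 48.7 TPM. AT4G03415, a type 2C protein phosphatase, had 33.5, 43.5 and 25.4 TPM. RABA4C (AT5G47960), a GTPase of vesicle traffic, had 23.8, 27.0 and 20.5 TPM. NHL3 (AT5G06320), a membrane protein of defence, had 32.5, 12.3 and 16.8 TPM, and WAKL18 (AT4G31110), a wall-associated kinase, had 13.4, 11.2 and 8.46 TPM. CLE9 (AT1G26600), which encodes a secreted signalling peptide, had 7.94, 6.08 and 6.33 TPM.

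Membrane and transport held 13 members, among them 5 genes described only as transmembrane proteins. Beside TIC20-II, the transmembrane gene AT5G41530 had 36.4, 40.7 and 21.0 TPM and AT3G42725, a putative membrane lipoprotein, had 42.3, 32.9 and 26.7 TPM. CLC2, a light chain of the clathrin coat, had 36.4, 29.2 and 33.0 TPM. The transmembrane gene AT5G02160 had 25.2, 20.2 and 18.04 TPM. SC replicate 3 was the lowest of the libraries for all of these except CLC2.

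Secreted and cell wall proteins made up 5 members of low level. Beside JAL15, AT4G37950, a rhamnogalacturonate lyase that cuts pectin, had 13.2, 11.1 and 18.04 TPM. COBL9 (AT5G49270), a GPI-anchored protein known for root hair growth, had 10.7, 11.1 and 8.16 TPM. AT3G53330, with a plastocyanin-like domain, had 9.45, 8.33 and 5.45 TPM, and the thionin-like gene AT1G12660 had 5.13, 8.67 and 5.30 TPM.

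The 10 metabolism members reached at most 20.9 TPM in SC median. This was AT5G43190, a kelch repeat gene with a galactose oxidase-like description, with 29.6, 12.8 and 20.9 TPM. OASA1 (AT4G14880), which makes cysteine in the cytosol, had 13.7, 16.9 and 15.1 TPM. CTU2 (AT4G35910), of transfer RNA thiolation, had 9.62, 19.7 and 13.7 TPM. AT1G17430, a hydrolase, had 9.75, 7.85 and 9.95 TPM, and AT2G47780, of the rubber elongation factor family, had 11.4, 9.72 and 9.20 TPM.

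The 7 members without a described function included 6 hypothetical proteins. After AT5G26620, the highest were AT3G26395 with 31.1, 36.0 and 21.7 TPM, a gene model with only 24 codons, AT3G07580 with 16.8, 17.5 and 17.97 TPM, AT1G17510 with 15.8, 17.5 and 9.49 TPM, and AT3G04181, given above.

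**Figure D4:**
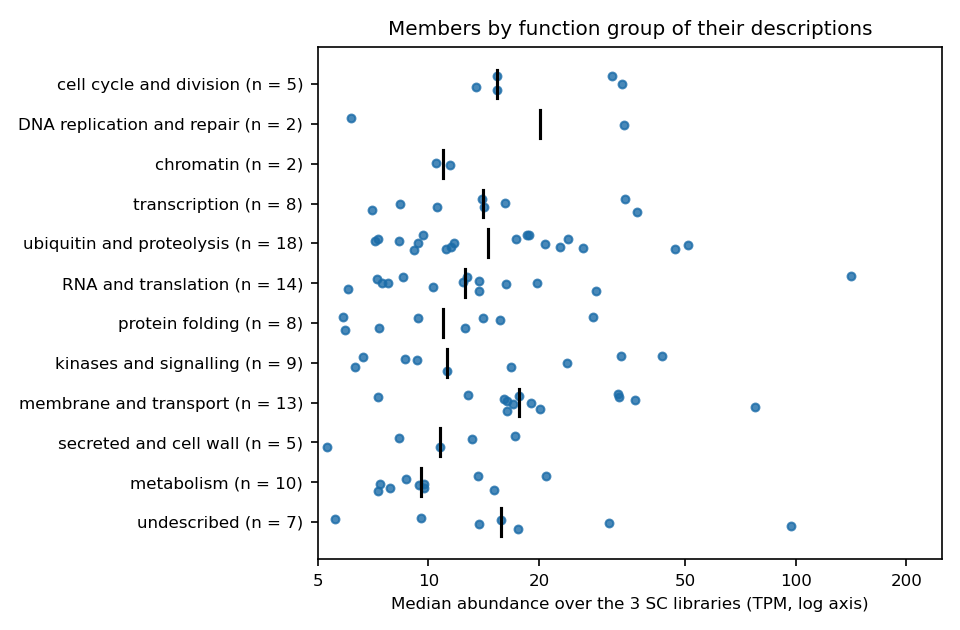
Median abundance over the 3 SC libraries (TPM, log axis) of each of the 101 members, by function group of its description. Points are genes and black bars are group medians. The groups overlap widely, and the 2 highest points are AT1G71350 (142 TPM) and AT5G26620 (97.3 TPM).

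The members were short genes with few exons. In the TAIR10.1 annotation their median coding length was 939 bases, against 1116 in the other SC genes and 1047 in all genes of the table. Their median exon number was 3, against 5 in the other SC genes and 4 in all genes, and 24 members (23.8%) had a single exon, against 12.1% and 20.5%. Proteins under 150 residues came from 20 members (19.8%), against 11.8% of the other SC genes and 16.1% of all genes. Chromosome 3 carried 31 members (30.7%), against 20.9% of the other SC genes and 19.9% of all genes. No members were neighbours on a chromosome, and the closest pair, AT3G50350 and AT3G50373, had 2 genes between them over 10636 bases. These are descriptions, and no test was run on them.

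A list of 18 sperm genes, made of DUO1, several of its targets and other genes named in sperm biology, had 0 members. Members were 2.58% of all genes of at least 5 TPM in every SC library. Between 100 and 500 TPM in SC median they were 0.164%, so 0 of 18 is near these shares and is not read further. All 18 were tested between the cell types with limma on log2(TPM + 1), and 17 were called higher in SCs, at an adjusted p under 0.01 and a log2 difference over 1. The exception was DUO3 (AT1G64570), a MYB-like regulator, with 18.3, 17.7 and 18.7 TPM in SCs and 17.2, 10.9 and 8.32 TPM in VN. DUO1 (AT3G60460) had 123, 108 and 103 TPM in SCs and 0.127, 0.491 and 4.32 TPM in VN. All values but 1 on this list were above 0 in VN, the exception being DMP8 (AT1G09157), a membrane protein of gamete fusion, in VN replicate 3. In the same fit all 101 members were called higher in SCs, which the rule fixed and from which nothing is read. Of the 10955 tested genes, 64.9% were called in either direction, 29.2% higher in SCs and 35.6% higher in VN.

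Reads that members may share with other genes were looked for through the annotation. A member whose coding sequence is nearly that of another gene can lose or gain reads to it, and 7 members had such a copy, with at least 90% coding identity over at least 50% of their length. EIF4E3 (AT1G29550), a cap-binding initiation factor, was 97.0% identical to AT1G29590 (12.4, 11.3 and 7.32 TPM in SCs and 1.87, 3.57 and 0.714 TPM in VN). RPL40B encodes the same protein as UBQ1 (AT3G52590), which had 10.7, 7.94 and 9.08 TPM in SCs and 11.3, 7.10 and 5.61 TPM in VN. RPS23A (AT3G09680), with 12.7, 7.25 and 6.95 TPM in SCs, was paired with RPS23B (AT5G02960), which was listed at 0 in every SC library and had 4.44, 0 and 0.232 TPM in VN. The other 4 were AT1G53690, AT2G35090, AT5G37440 and AT5G44940. The levels of all 7 are uncertain for this reason.

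Another gene on the opposite strand overlapped 27 members (26.7%), a share close to the 26.7% of the other SC genes and the 24.6% of all genes. Overlap was measured between whole gene spans, introns included, so it need not mean shared reads. Where exons of both genes overlap, strand cannot assign the reads, as the libraries were not stranded. The RING gene AT2G24480 lies at chr2:10397588-10398184, and all 597 bases of its transcript fall inside RPA2 (AT2G24490), a subunit of the complex that coats single-stranded DNA in replication. RPA2 had 57.2, 48.3 and 37.5 TPM in SCs, close to the 59.4, 47.0 and 37.7 TPM of AT2G24480 library by library, and 1.71, 0.969 and 2.04 TPM in VN. The GRAS gene AT1G07520 shared 2852 bases with FTSH10 (AT1G07510), a mitochondrial protease gene with 1.13, 2.21 and 2.55 TPM in SCs and 16.7, 13.7 and 16.2 TPM in VN. Overlaps passed 500 bases in 5 members. Of the 27 opposite genes, 20 had TPM values, and 3 of these were above 0 in every VN library. They were RPA2, FTSH10 and AT1G17440, which overlaps the member AT1G17430 by 30 bases.

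Most members had a relative elsewhere in the genome, and the rule did not use the values of these relatives. Relatives that are near copies, as described above, can share reads with the member, so their values are not independent of it. Among the relatives called higher in SCs, these are AT1G29590, AT2G35070 and AT5G44960. A nearest paralogue, the best protein match at 30% identity or more over at least 50% of the member, was found for 72 members, and for 53 of them at 50% identity or more. None of these paralogues was itself a member. In VN, 14 paralogues were listed at 0 in every library, 23 were above 0 in every library and 12 had at least 5 TPM in every library. The limma fit tested 39 paralogues, of which 18 were called higher in SCs, 8 higher in VN and 13 in neither direction. Over all tested genes 29.2% were called higher in SCs, 35.6% higher in VN and 64.9% in either direction. The share of paralogues called in either direction was near that of all genes. By direction, the share higher in SCs was above that of all genes and the share higher in VN was below it. These differences were not tested. The other 33 were too low for testing. All log2 differences below are SC minus VN on the log2(TPM + 1) scale, with SE, and the median over all tested genes was -0.55.

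The largest differences toward SCs belonged to 4 relatives that were more abundant than the member in every SC library. PUB28 (AT5G09800), a U-box ligase and the relative of PUB29, had 713, 806 and 1235 TPM in SCs and 6.39, 11.5 and 12.1 TPM in VN (6.39 ± 0.31, limma adjusted p = 6.4e-07). PUB29 itself had 9.59, 6.91 and 9.13 TPM in SCs. CDKB1;2 (AT2G38620) is 88.7% identical to CDKB1;1 and had 297, 250.2 and 241 TPM in SCs and 6.68, 0.206 and 10.8 TPM in VN (5.78 ± 0.75, limma adjusted p = 0.00017). CYCB1;2 (AT5G06150), the relative of CYCB1;3, had 723, 644 and 886 TPM in SCs and 20.3, 34.9 and 37.1 TPM in VN (4.60 ± 0.26, limma adjusted p = 1.6e-06). Each of these members was thus the weaker gene of its pair in every SC library, and the stronger gene was above 0 in every VN library. FBX15 (AT4G04690), an F-box gene related to AT3G10430, had 25.2, 21.4 and 16.1 TPM in SCs and 0.0644, 5.03 and 0 TPM in VN (3.54 ± 0.67, limma adjusted p = 0.0016).

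The other 14 relatives called higher in SCs differed by less on the log2 scale, and AT3G11100 was above its member in every SC library. AT1G77360, the relative of the mitochondrial splicing factor gene OTP43 (AT1G74900), had 9.17, 9.51 and 5.72 TPM in SCs and 0, 0 and 0.108 TPM in VN (3.11 ± 0.32, limma adjusted p = 4.2e-05). ROC3 (AT2G16600), related to ROC2, had 7.20, 9.80 and 11.4 TPM in SCs and 2.46, 0 and 0.152 TPM in VN (2.70 ± 0.50, limma adjusted p = 0.0014). AT5G44960, related to AT5G44940, differed by 2.48 ± 0.37, SCL34 (AT2G29065), related to the GRAS gene AT1G07520, by 2.19 ± 0.31, and AT2G03640, related to the NTF2 family gene AT1G13730, by 2.05 ± 0.34. AT1G29590, the near copy of EIF4E3, differed by 1.98 ± 0.42 and GEBP (AT4G00270), related to AT5G41530, by 1.68 ± 0.31. AT5G49420, related to the MADS-box gene AT5G38620, differed by 1.62 ± 0.34, BBD1 (AT1G75380), related to BBD2 (AT1G19660), by 1.45 ± 0.34, and AT3G11100, related to AT5G05550, by 1.32 ± 0.27. The relatives AT2G35070 of AT2G35090, AT5G51360 of AT3G50373, SMR15 (AT1G60783) of SMR8 and PIN1AT (AT2G18040) of AT1G26550 were listed at 0 in every VN library, as the members were, with SC values of 0.821 to 5.998 TPM over these 4 genes. Of 13 alternative settings, the call of PIN1AT held in 6, that of BBD1 in 7 and that of FBX15 in 9. Those of SMR15, AT5G51360 and GEBP each held in 12 and were lost without the filter on TPM. FBX15, AT1G29590 and AT5G49420 lost the call without any 1 of the SC libraries, BBD1 without SC replicate 1 or 2 or VN replicate 1, ROC3 without SC replicate 2 or 3, AT3G11100 without SC replicate 1 or 2, and PIN1AT without SC replicate 2 or 3 or VN replicate 1 or 3.

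For 8 members the nearest relative was called higher in VN, the side on which the member itself was listed at 0. VGT1 (AT3G03090), a glucose transporter of the vacuole, had 2.16, 2.61 and 3.20 TPM in SCs and 382, 323 and 250.3 TPM in VN (-6.44 ± 0.25, limma adjusted p = 3.2e-07). Its relative AT5G17010, a member that is 80.0% identical, had 13.3, 12.8 and 6.20 TPM in SCs. CIPK11 (AT2G30360), a kinase that acts on the proton pump of the plasma membrane, had 2.98, 4.73 and 1.12 TPM in SCs and 47.6, 40.3 and 79.3 TPM in VN (-3.90 ± 0.43, limma adjusted p = 6.4e-05), beside the member CIPK22. AT4G28480, a DnaJ gene, had 5.61, 4.35 and 8.56 TPM in SCs and 51.7, 39.5 and 44.9 TPM in VN (-2.73 ± 0.29, limma adjusted p = 5.4e-05), and the member AT2G20560, 84.2% identical, had 5.57, 9.21 and 7.32 TPM in SCs. CLE10 (AT1G69320), the relative of the peptide gene CLE9, had 0, 0.415 and 0 TPM in SCs and 8.56, 3.74 and 7.30 TPM in VN (-2.68 ± 0.38, limma adjusted p = 0.00027). These 4 calls held in all 13 alternative settings.

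The other 4 relatives higher in VN included 1 whose call held in all 13 settings, AT3G05500, and 3 whose calls were lost in some. This gene, of the rubber elongation factor family and related to AT2G47780, had 74.7, 57.9 and 46.7 TPM in SCs and 332, 398 and 301 TPM in VN (-2.52 ± 0.23, limma adjusted p = 1.9e-05). AT3G20230, related to the ribosomal L18p/L5e gene AT5G27820, had 0, 0.225 and 0.271 TPM in SCs and 1.88, 2.62 and 4.11 TPM in VN (-1.70 ± 0.34, limma adjusted p = 0.0021). AT5G48335, related to AT3G07580, had 1.24, 0 and 0 TPM in SCs and 3.48, 4.13 and 2.24 TPM in VN (-1.69 ± 0.42, limma adjusted p = 0.0065). AT5G60930, the nearest match of AT5G33300 at 37.8% identity, had 50.5, 56.4 and 54.6 TPM in SCs and 139, 133 and 82.5 TPM in VN (-1.09 ± 0.25, limma adjusted p = 0.0040). The call of AT3G20230 was lost without the filter on TPM, without SC replicate 1 and under centring (each library set to a median of 0). The last 2 calls each held in only 5 of 13 settings. Both were lost under centring, under quantile normalization and without SC replicate 2, SC replicate 3, VN replicate 1 or VN replicate 2, and that of AT5G60930 also without SC replicate 1.

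**Figure D5:**
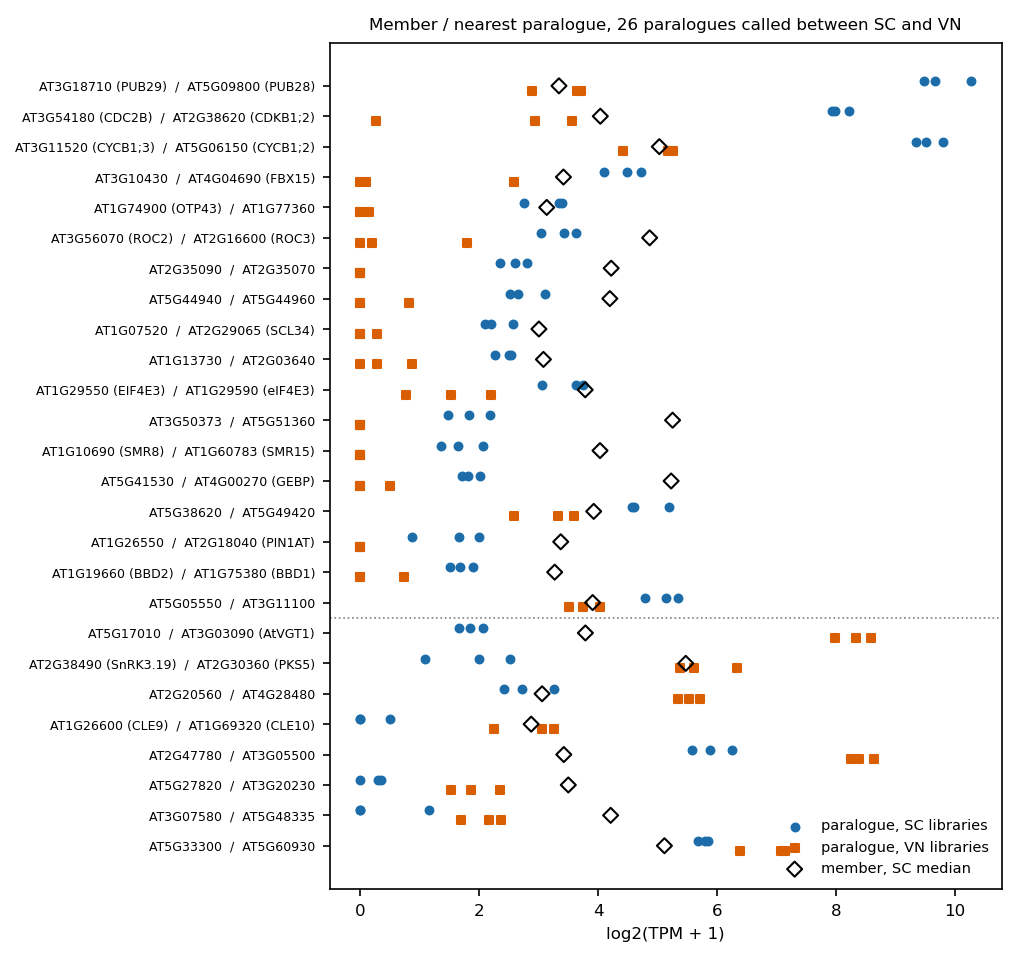
Levels of the 26 nearest paralogues called between SCs and VN (log2(TPM + 1)), with circles for SC libraries, squares for VN libraries and a diamond for the SC median of the member. Rows above the dotted line are higher in SCs (18) and rows below are higher in VN (8). VGT1 reaches 250.3 to 382 TPM in VN beside 2.16 to 3.20 TPM in SCs.

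Inhibitors of cyclin-dependent kinases were followed further, as 2 members belong to them. Of 25 genes whose symbol begins with SMR, SIM, KRP or ICK, 10 were high enough to be tested. Both members aside, 2 of 8 tested genes, SMR6 (AT5G40460) and SMR15, were called higher in SCs and 1 higher in VN. Over all tested genes, 29.2% were called higher in SCs and 35.6% higher in VN. No lean of the family is read from so few genes. SMR6 had 10.5, 8.09 and 6.90 TPM in SCs and 0.669, 1.35 and 0.228 TPM in VN (2.47 ± 0.35, limma adjusted p = 0.00030). SMR15, at 3.20, 1.58 and 2.11 TPM in SCs, was listed at 0 in every VN library and stayed under the 5 TPM of the rule. SMR12 (AT2G37610) was the only tested one higher in VN, with 0, 0.294 and 0 TPM in SCs and 37.3, 15.7 and 29.1 TPM in VN (-4.62 ± 0.38, limma adjusted p = 1.1e-05). The remaining 5 tested genes were not called. One of these, AT4G27280, carries the symbol KRP1 but is described as a calcium-binding EF-hand protein.

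The wider function groups were counted over all tested genes outside the members. In cell cycle and division, 39 of 95 such genes were called higher in SCs and 18 higher in VN, with a median log2 difference of 1.05. For DNA replication and repair the counts were 41 and 11 of 68 genes, with a median of 2.43. Protein folding had 49 and 51 of 155 genes with a median of 0.02, and ubiquitin and proteolysis 279 and 239 of 834 with a median of 0.24. Kinases and signalling, by contrast, had 179 and 404 genes among 834, with a median of -1.40. All 10854 tested genes outside the members had a median of -0.61, with 3103 called toward SCs and 3901 toward VN. Among the groups not yet given, the median was 0.60 for RNA and translation and 0.25 for chromatin. It was -0.52 for metabolism, -0.61 for transcription and -0.80 for membrane and transport. Undescribed genes had -0.96, and secreted and cell wall genes -1.32. Members thus came from groups that leaned toward SCs as well as from groups that leaned toward VN.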

How the data were processed

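RNA from SCs and VN of mature pollen, 3 libraries each, had been made into Smart-seq2 libraries and sequenced by the authors. Per the study's methods, reads were mapped to TAIR10 with Hisat2, transcripts were assembled and merged with Stringtie, and abundance was estimated with Salmon. The submitters' processing notes also name Trim Galore. The authors deposited 1 table of TPM values per gene, which sum to 1000000 in each library, and the summing of transcripts into genes is not given in the sources used here. TPM holds no read depth. The study gives total reads for each cell type but not for each library, so the depth of each library is not known here. The 3 libraries a group set the precision. Rows without a gene name (40313) were blank and were left out.

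Members were genes of at least 5 TPM in every SC library and 0 TPM in every VN library. The members, function groups and lists were chosen with earlier results of these data known. Named genes were the 15 highest members, up to 5 of each function group, those with the 3 widest and 3 narrowest ranges, those at the edges of the rule, those with a tested relative that was called, and those on the lists. A few further members were named for their family.

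Genes of at least 1 TPM in at least 2 of 6 libraries were tested by limma 3.58.1 in R 4.3.3 on log2(TPM + 1) with a mean-variance trend (two-sided, adjusted p under 0.01 and a log2 difference over 1 in size). The pseudocount understates the change of low genes. The code was tested on simulated data. Gene models, start sites and sequences were taken from the RefSeq TAIR10.1 annotation, matched by gene ID, and all 101 members matched. Proteins were translated from it and compared with BLAST+ 2.17.0 at an e-value of at most 1e-05. Other steps ran in Python 3.11.15 (pandas 2.3.3 and numpy 2.4.6 for tables, matplotlib 3.10.9 for plots). Alternatives were other TPM limits, a mean in place of a minimum, rescaling without the 10 highest genes of each library, a pseudocount of 0.1, other filters, quantile normalization, centring, no trend, the replicate number as a block, each library left out, 50% identity for paralogues and a shorter promoter window. Leaving out members with near copies or opposite-strand overlaps was added after seeing the data.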

Additional observations from a re-analysis of the deposited data

How the results depend on the processing

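The number of members depended on the limits. It was 381, 237 and 50 at a minimum of 1, 2 and 10 TPM in SCs, and 176, 343 and 495 where VN values under 0.1, 0.5 and 1 TPM were allowed. Their share of the SC genes was 6.16%, 4.54% and 1.68%, and 4.49%, 8.76% and 12.6%. A mean of at least 5 TPM gave 148 members and 3.35%, and rescaling without the 10 highest genes gave 191 members and 3.94%. Leaving out 1 library gave 111 to 237 members and 2.75% to 6.05%, with 237, 153 and 203 without VN replicates 1, 2 and 3. Without near copies 94 members remained, and without opposite-strand overlaps 74. Looser limits or fewer libraries widen the rule by construction. Rescaling does so too, since it raises the remaining SC values and leaves VN values of 0 at 0.

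The limma fit called 7105 genes, and 5845 to 7411 under the alternatives. Quantile normalization moved the median log2 difference of all tested genes to -0.13 and centring moved it to -0.03. The median was -0.55 without further scaling. The share of calls higher in SCs was 45.1%, 51.3% under quantile normalization and 53.8% under centring. Nearest paralogues called higher in SCs numbered 11 to 18 when a library was left out, with the 11 without SC replicate 2, and 13 without a filter, 22 under quantile normalization and 21 under centring, where 5 were called higher in VN. Paralogues called higher in VN numbered 6 to 9 when a library was left out. No call reversed. Same-numbered SC and VN libraries did not deviate together across genes (r = 0.0085, -0.035 and -0.0194 for replicates 1, 2 and 3). The labels do not say whether a shared number means a shared pollen preparation, and these values cannot decide it. A fit with the replicate block called 6927 genes, with 16 paralogues higher in SCs and 8 higher in VN. No outlier check applies to groups of 3, and the depth of each library is unknown.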
